A study of Rattus norvegicus with 8 samples.

Results

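Osteopontin, encoded by Spp1, is a secreted and heavily phosphorylated glycoprotein of the extracellular matrix. It binds integrins through an RGD sequence and also binds the hyaluronan receptor CD44, and it acts on cell adhesion, migration and survival. In the spinal cord of rodents it is known from large motor neurons, for which it serves as a marker in mice, and from activated microglia and macrophages, which make it after damage. A change in the amount of Spp1 RNA in whole tissue can therefore come from a neuronal or a phagocytic source, and in such bulk samples fewer cells of a type and less RNA per cell cannot be told apart.

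Spp1 is 1 of 32883 genes in the deposited table and was followed by its Ensembl identifier, ENSRNOG00000043451. Rats of the outbred Sprague Dawley strain gave RNA from the lower lumbar cord, which was sequenced by CEL-Seq2, which reads the 3' end of polyadenylated transcripts and counts each captured molecule once by a random tag. The injured group held 4 libraries from animals 4 days after a hemisection, a cut through 1 side of the cord, at thoracic level 9. The uninjured group held 4 libraries from animals without spinal cord injury. No other agent or genetic change is named for either group. The labels used here give neither a sham operation, nor the side of the cord sampled, nor the age or sex of the rats, nor whether each library came from its own animal. The comparison asks how an injury at thoracic level affects Spp1 RNA in cord far below the cut.

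The libraries were shallow and uneven, with 153060 to 378725 molecules in injured and 119808 to 405537 in uninjured libraries. Total molecules did not separate the groups (exact two-sided permutation test, p = 0.943). Replicate 3 was the shallowest library in either group. Levels are given as CPM, the Spp1 molecules per 1000000 molecules of the 4159 tested genes, with each library's total scaled by its TMM factor, edgeR's correction for differences in composition between libraries. Because each transcript is read at its 3' end, CPM is not divided by transcript length.

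Spp1 was readily detected in every library. It was counted 123, 74, 35 and 53 times in injured replicates 1 to 4, and 86, 36, 10 and 131 times in uninjured replicates 1 to 4. A single library, uninjured replicate 3, thus had no more than 10 molecules, where 3 molecules were worth 34.8 CPM, against 7.20 CPM in uninjured replicate 4. By number of molecules Spp1 ranked from 533rd to 968th among all genes in injured libraries and from 580th to 1588th in uninjured libraries. It lay above 90.6% to 94.7% of the genes detected in an injured library and above 77.5% to 94.3% of those detected in an uninjured one. Averaged over the 8 libraries, 80.5% of the tested genes were less abundant.

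The level of Spp1 was 340, 198, 273 and 224 CPM in injured replicates 1 to 4. In uninjured replicates 1 to 4 it was 221, 159, 116 and 314 CPM. The highest value was in an injured library and both lowest values were in uninjured libraries, but the groups overlapped over most of their range: uninjured replicate 4 exceeded 3 of the 4 injured libraries, and injured replicate 2 lay below uninjured replicate 1. The mean was 258 ± 62.5 CPM in injured libraries and 202 ± 86.2 CPM in uninjured libraries (SD, n = 4 each).

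**Figure D1:**
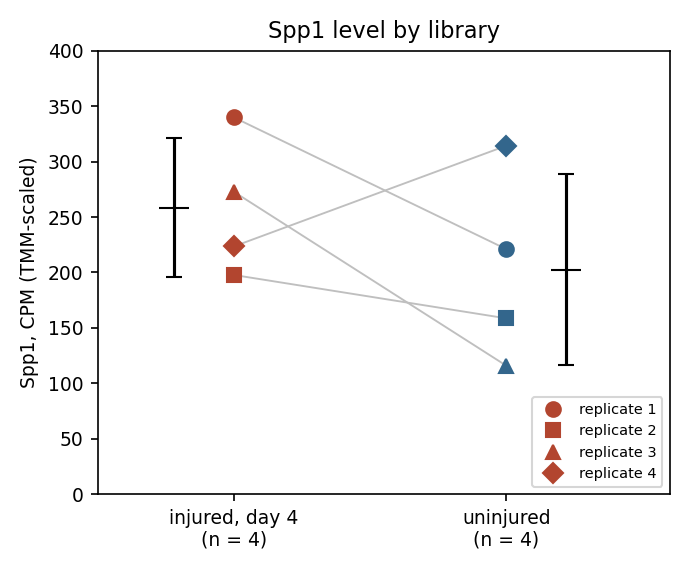
Spp1 level in CPM (vertical axis, from 0) in each injured library (left) and each uninjured library (right). Marker shape gives the replicate number, grey lines join libraries of the same number, and black bars are the group mean ± SD (n = 4 each), 258 ± 62.5 CPM injured and 202 ± 86.2 CPM uninjured; the line of replicate 4 runs against the other 3.

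The difference between the groups was smaller than the spread between libraries. The fitted log2 fold change of injured over uninjured was 0.28 ± 0.28 (standard error, SE; edgeR's quasi-likelihood test, unadjusted p = 0.337, adjusted p = 0.984 over 4159 genes), a fold of 1.21 with a 95% interval from 0.804 to 1.83. Spp1 was therefore not called as changed, where 0.986% of the tested genes were called and all 41 of these were higher in injured libraries. A fit that blocks on the replicate number called 94 genes higher and 16 lower, and Spp1 was in neither set. An exact two-sided permutation test on the CPM of Spp1 alone gave a mean difference, injured minus uninjured, of 56.0 CPM (p = 0.314, where the smallest p that 4 against 4 can give is 0.0286). The interval leaves room for a rise of up to 1.83-fold and for a fall of up to 1.24-fold, and changes within these limits are compatible with the data. It lay below a 2-fold rise, but this bound rested on single libraries: the upper end was 2.25-fold without uninjured replicate 4 and 2.06-fold without injured replicate 2. The fitted fold itself was 1.48 without uninjured replicate 4 and 1.07 without injured replicate 1. Since separate animals are not stated, each p-value refers to the spread among these 8 libraries.

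Spp1 was not among the larger changes of the table. Its log2 fold change exceeded that of 80.3% of the 4159 genes, whose median was -0.01. Its absolute log2 fold change exceeded that of 59.8% of genes, against a median absolute value of 0.22. Its unadjusted p was the 1414th smallest. The 41 genes called higher had a median fold of 3.68 and a smallest fold of 2.06, so each of them had a fitted fold above the upper end of the Spp1 interval. Those fitted folds belong to genes chosen on the same libraries.

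**Figure D2:**
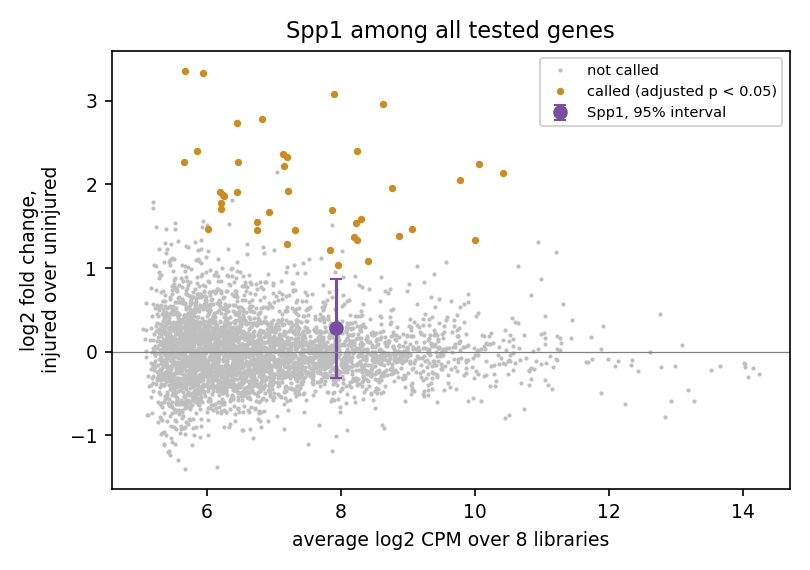
Log2 fold change of injured over uninjured (vertical axis) against average log2 CPM over the 8 libraries (horizontal axis) for the 4159 tested genes. Orange points are the 41 genes called at an adjusted p under 0.05, and the purple point with its 95% interval is Spp1, at a log2 fold change of 0.28; all the orange points lie above the upper end of that interval.

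Both groups carry replicate numbers 1 to 4 in the titles, and libraries of the same number deviated together across genes, most weakly in number 3. Spp1 was therefore also compared number by number. The intervals of these ratios cover counting error only. In replicate 1 Spp1 stood at 340 CPM in the injured and 221 CPM in the uninjured library, a ratio of 1.54 with an exact 95% interval from 1.16 to 2.05. In replicate 2 the ratio of injured to uninjured was 1.25, from 0.826 to 1.91. The injured library was thus higher in both numbers, beyond counting error in replicate 1 and within it in replicate 2.

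Replicates 3 and 4 lay in opposite directions. In replicate 3 the levels were 273 CPM in the injured and 116 CPM in the uninjured library, and the ratio of 2.35 had a wide interval from 1.14 to 5.33, since the uninjured library held 10 Spp1 molecules. In replicate 4 they were 224 CPM in the injured and 314 CPM in the uninjured library. The ratio of 0.711, with an interval from 0.507 to 0.986, was a lower level in the injured library, beyond counting error. Spp1 was higher in the injured library in 3 of 4 numbers, and the interval of replicate 4 overlapped neither that of replicate 1 nor that of replicate 3. Across the whole table, too, libraries of a group differed beyond counting noise (lowest chi-square per degree of freedom 2.65). With the replicate number as a block, the log2 fold change of Spp1 became 0.30 ± 0.22 (SE; edgeR's quasi-likelihood test, unadjusted p = 0.200, adjusted p = 0.613), where 2.64% of genes were called. An exact test over sign flips of the 4 differences gave p = 0.375, where the smallest p that 4 pairs can give is 0.125.

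**Figure D3:**
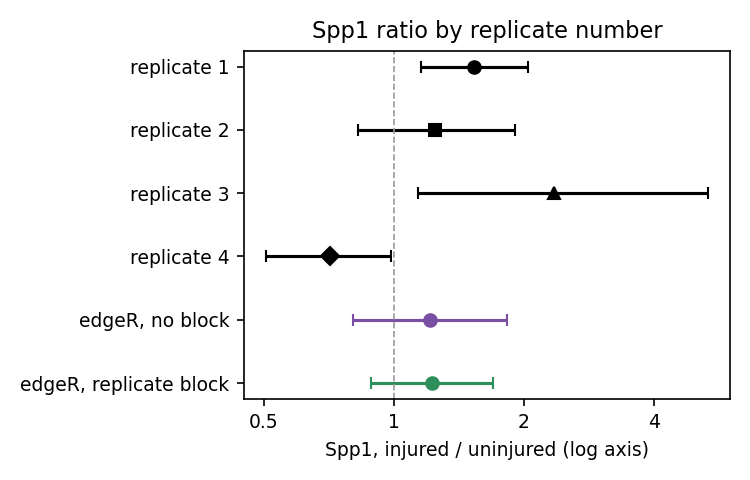
Ratio of Spp1 CPM in the injured to that in the uninjured library (horizontal log axis) for replicate numbers 1 to 4, with exact 95% intervals for counting error, and the fitted fold of all 8 libraries with its 95% interval, without and with the replicate number as a block. Replicates 1 and 3 lie above 1 (the dashed line), replicate 4 lies below it, and both fitted intervals cover 1.

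Numbers 1 and 2 of both groups, and likewise numbers 3 and 4, were also fitted alone. In numbers 1 and 2 the log2 fold change of Spp1 was 0.48 ± 0.29 (SE; edgeR adjusted p = 0.640), and the upper end of its interval was 2.13-fold. In numbers 3 and 4, whose ratios lay in opposite directions, it was 0.05 ± 0.43 (SE; edgeR adjusted p = 0.9995). Whether these fits differ from each other in Spp1 was not tested.

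Spp1 varied more among uninjured than among injured libraries. The highest uninjured library stood 2.71-fold above the lowest, and the highest injured library 1.72-fold above the lowest. On the log2 CPM scale the SD was 0.33 in injured and 0.59 in uninjured libraries (n = 4 each), while counting error for these numbers of molecules gives about 0.19 in injured and 0.28 in uninjured libraries. Among 614 genes within 0.5 log2 units of the average level of Spp1, the median SD was 0.31 in injured and 0.34 in uninjured libraries. The SD of Spp1 exceeded that of 56.8% of these genes in injured libraries and of 86.0% in uninjured libraries. Whether the spread of Spp1 differs between the groups was not tested. Pooled over both groups, the SD of Spp1 was 0.47, above that of 79.8% of these genes, whose median was 0.34. edgeR's estimate of the coefficient of variation between libraries beyond counting was 26.7% for Spp1, against 26.1% in common over all genes. With the replicate block it was 18.4% for Spp1 against 15.9%. This estimate draws the value of each gene toward those of other genes, so part of this closeness is built in.

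The level in uninjured libraries followed depth. Ordered by total molecules, uninjured replicates 4, 1, 2 and 3 held 405537, 374649, 238236 and 119808 molecules, and their Spp1 levels of 314, 221, 159 and 116 CPM fell in the same order. The injured libraries did not share this order: injured replicate 2, with the most molecules of that group, 378725, had its lowest level, and injured replicate 3, with the fewest, 153060, had its second highest. Such an order is not rare in this table, since the CPM followed the order of totals for 222 of the 4159 tested genes (5.34%) in uninjured libraries and for 250 (6.01%) in injured libraries. As a share of all molecules, with no TMM scaling, Spp1 stood at 343, 195, 229 and 206 molecules per 1000000 in injured replicates 1 to 4 and at 230, 151, 83.5 and 323 per 1000000 in uninjured replicates 1 to 4. For counting error alone, the exact 95% binomial limits ran from 285 to 409 in injured replicate 1 and from 40.0 to 153 in uninjured replicate 3. The 2 scales differ in their denominator, all molecules against those of tested genes, as well as in the TMM factor. The group means on this scale were 243 ± 67.8 in injured and 197 ± 103 in uninjured libraries (SD, n = 4 each). Without both libraries numbered 3, the shallowest, the log2 fold change of Spp1 was 0.11 ± 0.30 (SE; edgeR adjusted p = 0.960), and without uninjured replicate 3 alone it was 0.13 ± 0.27 (SE; edgeR adjusted p = 0.948), against 0.28 with all 8 libraries. With total molecules as a covariate, a setting chosen after seeing the data, it was 0.33 ± 0.27 (SE; edgeR adjusted p = 0.885).

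**Figure D4:**
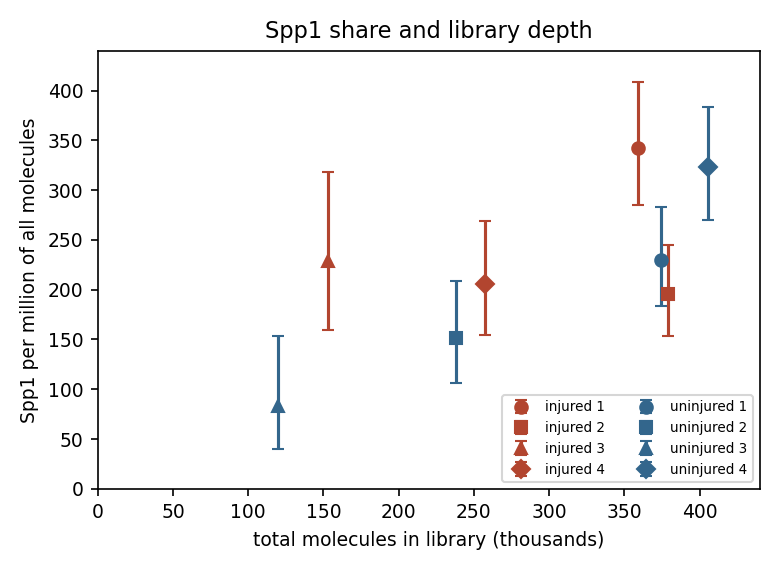
Spp1 molecules per 1000000 of all molecules (vertical axis, from 0) against total molecules in units of 1000 (horizontal axis) for the 4 injured (red) and 4 uninjured (blue) libraries, with exact 95% binomial intervals for counting error. The uninjured libraries climb with depth between 83.5 and 323 per 1000000, and the injured libraries show no such order. These shares carry no TMM scaling.

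The genes closest to Spp1 in their course over the libraries were sought by the root mean square difference in log2 CPM over the 8 libraries, after each gene's own mean was subtracted and with a prior count of 3. The files and the reference table do not pair their identifiers with symbols. The nearest, ENSRNOG00000005623, differed from Spp1 by 0.12 log2 units, against a median of 0.59 over all other tested genes. It had 155, 93.5, 125 and 131 CPM in injured replicates 1 to 4, and 126, 74.9, 57.9 and 161 CPM in uninjured replicates 1 to 4. The next, ENSRNOG00000013360, differed by 0.16 log2 units. It had 227, 152, 195 and 186 CPM in injured replicates 1 to 4, and 167, 137, 104 and 199 CPM in uninjured replicates 1 to 4. Both were lowest in uninjured replicate 3, as was Spp1, and both had their highest 2 levels in injured replicate 1 and uninjured replicate 4, as Spp1 did. The levels in uninjured replicate 3 rested on 5 molecules of ENSRNOG00000005623 and 9 of ENSRNOG00000013360. Neither was called: the log2 fold change of injured over uninjured was 0.15 (standard error 0.30, edgeR adjusted p = 0.991) for ENSRNOG00000005623 and 0.26 (standard error 0.25, edgeR adjusted p = 0.984) for ENSRNOG00000013360. They were picked for likeness from the whole table, so this resemblance is a description and no test.

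Across 25 other settings of the test, scaling, filter and libraries, the fitted fold of Spp1 ran from 1.03 to 1.48 and was above 1 in all 25. Spp1 was called in 0 of them, with unadjusted p from 0.0646 to 0.916, and the 95% interval covered 1 in each. A fall to 0.557-fold or below lay outside the interval in all of these settings, and a 2-fold rise lay outside it in 22 of them. These fits share most of their libraries, and a p that misses the threshold does not show that Spp1 is equal in the groups.

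**Figure D5:**
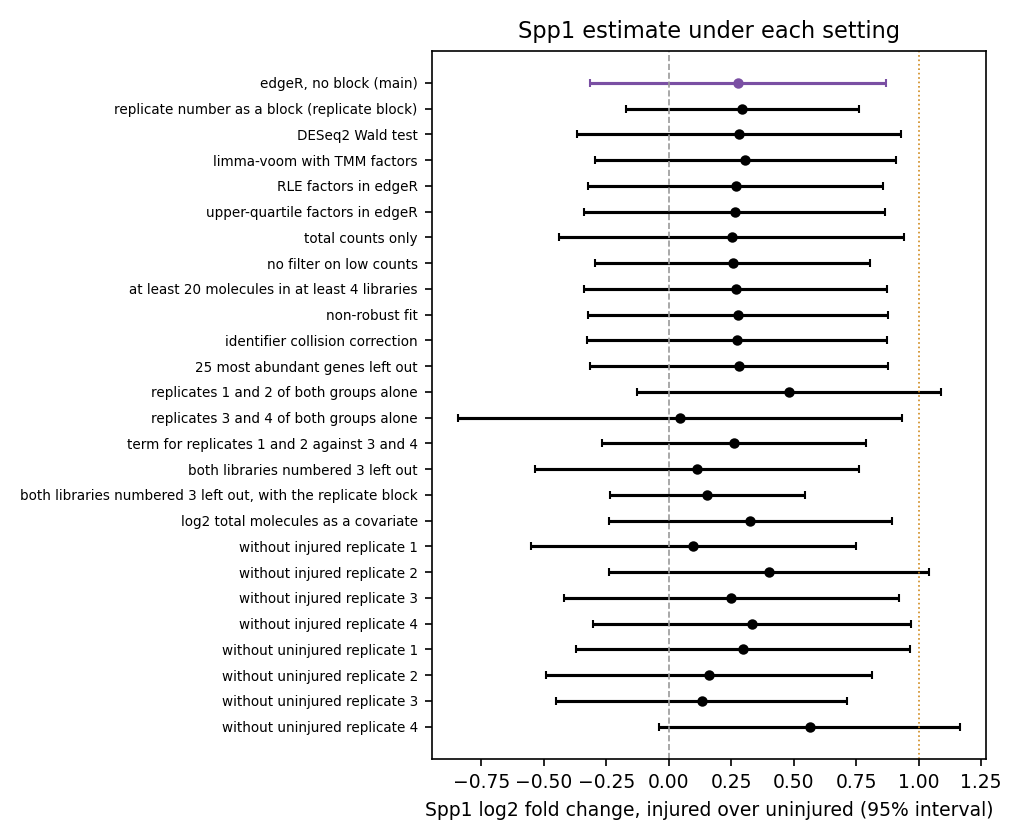
Log2 fold change of Spp1, injured over uninjured (horizontal axis), with its 95% interval under the main edgeR fit (purple) and each of 25 other settings (black). The dashed line marks no change and the dotted line a 2-fold rise; all estimates lie between 0.05 and 0.57, each interval covers 0, and 3 intervals reach past the dotted line.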

How the data were processed

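Values in the single deposited table are counts of molecules per Ensembl gene, whole numbers with no normalization. HISAT2 2.0.4, HTSeq 0.6.0 and the build Rnor_6.0 are named in the submitters' processing notes. The annotation release, filters, strand setting and collapsing of identifiers were not given in the sources used here, so molecules of an overlapping gene cannot be told apart from those of Spp1. Highest counts per library lay between 3989 and 4080, near a ceiling of 4096 tags, and a correction for repeated tags was an alternative.

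Genes passing edgeR's filterByExpr (minimum count 10, minimum total 15) were tested with edgeR 4.0.16 in R 4.3.3 (quasi-likelihood F test, TMM, robust fit, two-sided, Benjamini-Hochberg over 4159 genes, threshold 0.05). Standard errors were derived from the fitted value and F. Alternatives were limma-voom (limma 3.58.1), DESeq2 1.42.0, other scalings and filters and leaving out each library. The fit was also run on simulated counts. These had no effect shared by libraries of a number and no tag ceiling, so that run does not bear on either. Plots used matplotlib 3.10.9.

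Libraries of the same number deviated together from their group means, with correlations across genes of 0.39, 0.36, 0.17 and 0.45 for numbers 1 to 4. Correlations of different numbers ran from -0.39 to 0.24, so the highest of them exceeded that of number 3. All 8 libraries were closest to their own number. The numbers were therefore treated as pairs from the data, since no source used here says what they mean. No libraries of a group agreed within counting noise (lowest chi-square per degree of freedom 2.65).

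The identifier was taken as Spp1 as supplied with the gene chosen here, and no source used here pairs it with that symbol. The RefSeq table, of another build, pairs 0 identifiers with symbols, so 11 lists (osteopontin receptors and proteases, and markers of motor neurons, microglia and other cells) were not tested, the tissue was not checked by markers, and no coordinates or sequences are given. Named genes are Spp1 and the first 2 of the 5 genes most like it by the measure given. The gene, lists and settings were chosen with earlier results of these data known.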

Additional observations from a re-analysis of the deposited data

How the results depend on the processing

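The direction of Spp1 (injured above uninjured) and its side of the threshold held in all 25 alternatives, with log2 fold changes from 0.05 to 0.57 and adjusted p of 0.613 or more. Leaving out 1 library gave 0.10 to 0.57. The replicate block, at 0.30, changed no call on Spp1. The exact permutation test kept its direction and stayed above the threshold on the log2 scale, on all molecules and without each library, where the difference ran from 27.1 to 93.3 CPM. Sign flips within pairs cannot give a p under 0.125 and so could not pass it. The number of genes called was 41 of 4159 tested in the main fit (0.986%). It was 110 of 4159 with the replicate block (94 higher, 16 lower, 2.64% together). With no filter on low counts it was 98 of 12968. In replicates 1 and 2 alone it was 86 of 4768, and in replicates 3 and 4 alone 3 of 3226. With a term for these sets it was 72 of 4159. Without both libraries numbered 3 it was 62 of 4660, and 383 of 4660 when the block was added to that (272 higher, 111 lower). It ran from 23 to 77 with 1 library left out, where 3926 to 4705 genes were tested. Since the number tested differs, a higher count is not always a higher share. The cause of these moves was not tested. Depth limits Spp1 most in uninjured replicate 3, with 10 molecules.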
